A study of Mus musculus with 6 samples.

Results

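The genes that take up, carry, store and export iron, together with the metallothioneins, were followed in RNA-seq libraries of the mouse hepatoma line Hepa1-6. The 10 genes were chosen by symbol: the hepcidins Hamp and Hamp2, transferrin (Trf), the transferrin receptors Tfrc and Tfr2, the ferritin chains Fth1 and Ftl1, ferroportin (Slc40a1), and the metallothioneins Mt1 and Mt2. All 10 were found among the 25078 genes of the count table, and 7 of them were abundant enough to be tested among 11577 genes. Hepa1-6 was derived from a hepatoma of a C57/L mouse, and every library came from cells grown in DMEM with 10% fetal bovine serum. The wt group was 1 library of cells given no vector. The scr group was 2 libraries (25-2 and 50-1) of cells carrying a scramble vector delivered by lentivirus. The knockdown group, titled KO in the labels, was 3 libraries (25-3, 50-2 and 50-5) of cells carrying an shRNA vector against midnolin (Midn), a nuclear protein that promotes proteasomal breakdown of other proteins. Transduced cells were selected with puromycin and grown as colonies from single cells, so a library of the scr or knockdown group stands for few founder cells. The study describes its RNA-seq as done on 2 knockdown clones, sh1 and sh2, and on scr control cells, but the labels tie none of the 3 knockdown libraries to a clone and do not explain the numbers 25 and 50. No label says which libraries share a clone, and p-values measure only the spread between these samples.

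Hepatocytes are a centre of iron handling in the body. They secrete transferrin, which carries iron in the blood and delivers it to cells through the transferrin receptor, and hepcidin, a peptide hormone that binds the exporter ferroportin and causes its breakdown. Inside cells, surplus iron is kept in the ferritin shell built of heavy and light chains. When iron is short, iron regulatory proteins bind a hairpin, the iron responsive element, in the messenger RNAs of this system: bound near the start of the ferritin and ferroportin messages it blocks translation, and bound in the tail of the Tfrc message it protects the RNA from decay. Metallothioneins are small cysteine-rich proteins that bind zinc and copper and are switched on by the metal sensor MTF-1.

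The element that couples these genes to iron is shown here because the ferritin, ferroportin and receptor messages are read side by side in the results. A search of GENCODE M21 transcripts (GRCm38) for a C, 5 stem bases, the loop CAGTGN and 5 bases pairing with the stem found 7 sites in 4 of the 10 genes, and 1.34% of 21877 protein-coding genes held at least 1 such site. The sites are written 5′ to 3′ on the transcript strand with the loop in capitals.
Fth1, 5′ UTR, chr19:9982738-9982754, plus strand: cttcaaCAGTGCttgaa
Ftl1, 5′ UTR, chr7:45459785-45459801, minus strand: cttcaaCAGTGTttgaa
Slc40a1, 5′ UTR, chr1:45925471-45925487, minus strand: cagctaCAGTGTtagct
Tfrc, 3′ UTR, chr16:32631225-32631241, plus strand: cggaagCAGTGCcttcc
Tfrc, 3′ UTR, chr16:32631604-32631620, plus strand: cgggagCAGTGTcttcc
Tfrc, 3′ UTR, chr16:32631669-32631685, plus strand: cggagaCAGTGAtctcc
Tfrc, 3′ UTR, chr16:32631716-32631732, plus strand: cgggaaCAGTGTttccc
The ferritin chains share every base of the stem, and the 4 Tfrc sites lie within 1 tail. A match describes letters in a transcript and does not show that the element is bound.

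The metallothionein promoters are shown because both genes had their lowest level in the same library, knockdown 50-5. Trf and Fth1 were also lowest there, so this trait is not particular to the metallothioneins. RefSeq promoter windows (GRCm38.p6) were found for 8 of the 10 genes, and the 250 bases before each start were searched on both strands for TGCACNC or TGCGCNC, the core of the metal responsive element. At least 1 match was held by 21.4% of 32851 windows, 2 or more by 5.17% and 3 or more by 1.26%. Matches are in capitals.
Mt2, chr8:94172368-94172617, plus strand: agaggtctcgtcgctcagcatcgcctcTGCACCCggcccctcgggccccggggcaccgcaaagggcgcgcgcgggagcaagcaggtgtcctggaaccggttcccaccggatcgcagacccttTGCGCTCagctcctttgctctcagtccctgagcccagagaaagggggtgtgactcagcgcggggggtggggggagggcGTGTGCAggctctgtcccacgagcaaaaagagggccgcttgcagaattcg
Mt1, chr8:94178839-94179088, plus strand: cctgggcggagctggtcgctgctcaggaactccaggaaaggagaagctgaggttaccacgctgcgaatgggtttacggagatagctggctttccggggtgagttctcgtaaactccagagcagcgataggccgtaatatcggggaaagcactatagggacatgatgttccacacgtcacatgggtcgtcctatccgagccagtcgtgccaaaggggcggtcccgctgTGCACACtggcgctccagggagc
The Mt2 window held 3 matches, 2 on the strand of the gene and 1 on the other, with first bases at -223, -128 and -50 from the start. The Mt1 window held 1, at -23. Only the 250 bases before the RefSeq start were searched, so these are not counts for the whole promoters. Of the other members searched, Tfrc held 2 matches, at -53 and -50 on opposite strands and overlapping each other, and Hamp, Hamp2, Tfr2, Ftl1 and Fth1 held 0.

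The libraries held between 25586301 and 33119710 counted reads. Levels between genes are given as RPKM, reads scaled to exon length and to library size, and the contrast of knockdown with scr is a log2 fold change from edgeR's quasi-likelihood test on the counts, called at a Benjamini-Hochberg adjusted p (FDR) below 0.05 over all tested genes with at least a 1.5-fold change. A gene was tested where it exceeded 1 RPKM in at least 1 scr or knockdown library. By that rule 1230 genes were called, 10.6% of those tested, 5.40% higher and 5.23% lower in the knockdown. This count ran from 131 without knockdown 50-2 to 2273 without scr 25-2, and 60.1 to 67.9% of calls were higher when a knockdown library was left out. Midn itself (chr10:80148272-80158368) stood at 60.5 RPKM in wt, at 59.6 and 50.8 in the scr libraries, and at 20.3, 21.8 and 22.1 in the knockdown libraries. It fell 2.60-fold (log2 -1.38 ± 0.133 SE, edgeR FDR 0.00777, n = 3 and 2), and its FDR was 0.0525 without knockdown 50-2. Of 8 hepatocyte markers, 7 were detected and Serpina1a had no reads in any library. Their summed level was 4490 RPKM in wt, 2470 to 3940 in scr and 95.9 to 715 in the knockdown. Alb made up most of this sum in every scr library, and not every marker followed it. Ttr was called lower (log2 -6.68, edgeR FDR 0.0121). Alb, Afp and Fgb lay below both scr libraries in every knockdown library and Apob above both, none of them called, while Hnf4a and Apoa1 overlapped. The part of these hepatocyte messages in the results below was not tested. Of the markers for other liver cells, 4 of 6 macrophage, 4 of 5 fibroblast or stellate, 3 of 4 endothelial and 5 of 5 erythroid genes stayed below 1 RPKM in every library. The macrophage sum was 4.15 to 4.70 RPKM in scr and 8.58 to 13.6 in the knockdown, from Cd68 and Csf1r. The fibroblast or stellate sum was almost wholly Dcn and stood at 1030 RPKM in wt, 562 to 594 in scr and 409 to 573 in the knockdown. The endothelial sum was 2.88 RPKM in wt and at most 0.163 in scr and 0.358 in the knockdown. The part of these genes in the results was not tested.

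No member gene passed the test in either direction. Of the 7 tested, 0 were called (edgeR), beside 10.6% of all tested genes. With 7 genes this count is a description. In edgeR, 1 had an unadjusted p below 0.05, as did 31.5% of all tested genes. DESeq2 called 1, beside 20.1% of the genes it tested. In both cases the gene was Fth1. The fitted log2 fold change was positive for 2 and negative for 5, with a median of -0.35 against -0.01 over all tested genes. In bulk RNA, fewer cells of a type and less RNA per cell cannot be told apart.

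**Figure D1:**
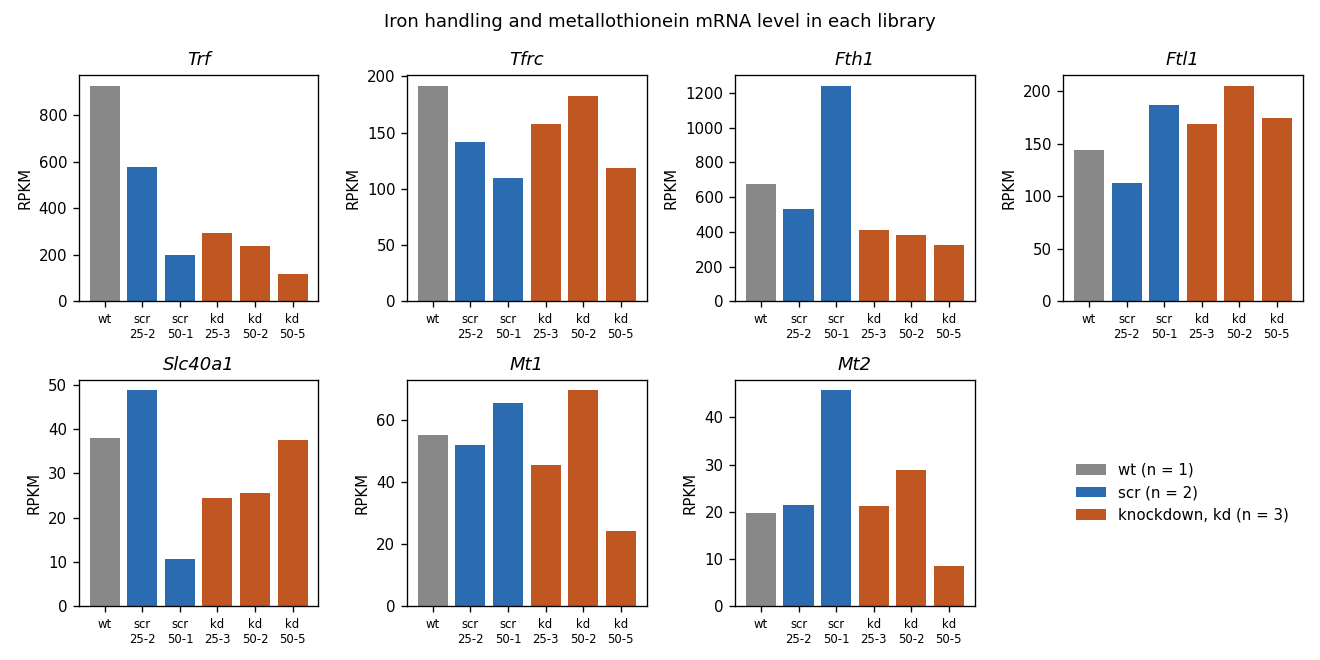
RPKM of the 7 tested member genes (vertical axes, each from 0) in each of the 6 libraries (wt grey, scr blue, knockdown orange), 1 bar per library. Fth1 is the panel in which every knockdown bar, at 323 to 413 RPKM, lies below both scr bars at 532 and 1242, and in Slc40a1 the scr bars enclose all the knockdown bars.

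The hepcidins were all but absent. Hamp (chr7:30942369-30944029), the iron hormone, had 0 reads in wt, 1 and 2 in the scr libraries, and 0, 1 and 0 in the knockdown libraries. Hamp2 (chr7:30922372-30924181), its close copy, had 0 reads in all 6 libraries, which allows a level of up to 0.207 to 0.263 RPKM at 3 counts. The hepcidins are close paralogues, and how reads matching both were counted was not stated. Every Hamp count was at or under 3 reads, which is 0.223 to 0.283 RPKM, and no fold was computed. Tfr2 (chr5:137569840-137588081), the second transferrin receptor and an iron sensor of hepatocytes that acts upstream of hepcidin, had 11 reads in wt, 6 and 1 in scr, and 3 in each knockdown library. At no more than 0.113 RPKM it was too low to test, and a difference between the groups was not detectable at this depth.

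Transferrin was among the most abundant of these messages and the tested member whose wt level lay farthest, as a fold, from the scr mean. Trf (chr9:103208876-103230286) stood at 927 RPKM in wt, at 578 and 198 in the scr libraries, and at 295, 237 and 119.7 in the knockdown libraries. The groups overlapped: scr 50-1 lay below 2 of the 3 knockdown libraries. The means were 388 ± 269 RPKM (SD, n = 2) in scr and 217 ± 89.2 (SD, n = 3) in the knockdown, a log2 fold change of -0.85 ± 0.541 SE with a 95% interval of -2.19 to 0.48 (edgeR FDR 0.332). The sign differed with the scr library kept, the value being 0.14 without scr 25-2 and -1.43 without scr 50-1.

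The receptor that takes up transferrin varied less. Tfrc (chr16:32608896-32632794) stood at 192 RPKM in wt, at 142 and 109 in scr, and at 158, 183 and 118 in the knockdown. The knockdown and scr ranges overlapped, with knockdown 50-5 between the scr libraries. The log2 fold change was 0.27 ± 0.227 SE with a 95% interval of -0.29 to 0.83 (edgeR FDR 0.463), and it was positive in all 14 alternative analyses, between 0.05 and 0.48. Within a library, Trf stood above Tfrc 4.84-fold in wt, 4.07- and 1.81-fold in scr, and 1.87-, 1.30- and 1.01-fold in the knockdown, so carrier and receptor messages were at near-equal level in knockdown 50-5. These within-library ratios were chosen after the values were seen and carry no test.

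The ferritin heavy chain came closest to a call. Fth1 (chr19:9980600-9985111), whose protein is the ferroxidase chain of the shell, stood at 674 RPKM in wt, at 532 and 1242 in the scr libraries, and at 413, 385 and 323 in the knockdown libraries. All 3 knockdown libraries lay below both scr libraries and below wt, an order that 19.5% of all tested genes shared, and 24.5% had all 3 below both scr libraries. The means were 887 ± 502 RPKM (SD, n = 2) in scr and 373 ± 45.8 (SD, n = 3) in the knockdown, and the log2 fold change was -1.26 ± 0.348 SE with a 95% interval of -2.12 to -0.40 (unadjusted p = 0.0120 and FDR 0.0721, edgeR). DESeq2 called it with the same fold change (FDR 0.00380). The spread lay in the scr group, where 50-1 was 2.33-fold above 25-2, while the knockdown libraries differed 1.28-fold at most. Without scr 25-2 the log2 fold change was -1.73 (edgeR FDR 0.00595, called), and without scr 50-1 it was -0.52 (edgeR FDR 0.130). Each of these fits has 1 scr library, which is assumed to vary as the knockdown libraries do, so its FDR takes no spread from the scr group.

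The light chain did not share that order. Ftl1 (chr7:45457944-45459886), the chain that helps lay down the iron core, stood at 144 RPKM in wt, at 112 and 187 in scr, and at 169, 205 and 175 in the knockdown. The groups overlapped, with 2 knockdown libraries between the scr libraries and 1 above both. The log2 fold change was 0.28 ± 0.237 SE with a 95% interval of -0.31 to 0.86 (edgeR FDR 0.462), and it ran from -0.03 without scr 25-2 to 0.69 without scr 50-1. Ferritin genes have processed copies in the genome that share reads with the parent gene, and how such reads were assigned was not stated, so both counts are uncertain to that extent.

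Set against each other within a library, the chains parted by group. Fth1 stood above Ftl1 4.69-fold in wt, 4.73- and 6.64-fold in scr, and 2.44-, 1.87- and 1.85-fold in the knockdown. The knockdown ratios were all below the 3 others, and the scr libraries were closer to each other in this ratio than in Fth1 alone. Tfrc over Fth1, the uptake message over the storage message, was 0.284 in wt, 0.267 and 0.0881 in scr, and 0.382, 0.475 and 0.366 in the knockdown, the knockdown libraries lying above the others. Fth1 enters both ratios, so the second is no separate instance of its order. Both ratios were picked after the values were seen and were given no test.

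**Figure D2:**
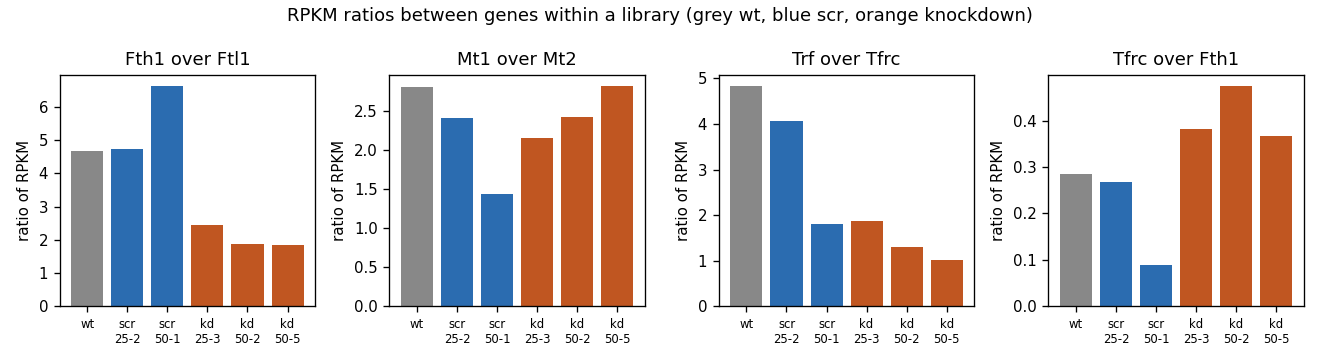
Ratio of RPKM between a pair of genes in the same library (vertical axes, from 0), for Fth1 over Ftl1, Mt1 over Mt2, Trf over Tfrc and Tfrc over Fth1, 1 bar per library (wt grey, scr blue, knockdown orange). Fth1 over Ftl1 is 1.85 to 2.44 in the knockdown and 4.69 to 6.64 elsewhere, while Mt1 over Mt2 overlaps between the groups.

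Ferroportin, the exporter of iron, had the largest fold between the scr libraries, 4.59, among the 7 tested genes. Slc40a1 (chr1:45908070-45925594) stood at 38.0 RPKM in wt, at 48.8 and 10.6 in scr, and at 24.4, 25.5 and 37.4 in the knockdown. All knockdown libraries lay between the scr libraries. The means were 29.7 ± 27.0 RPKM (SD, n = 2) in scr and 29.1 ± 7.23 (SD, n = 3) in the knockdown, a log2 fold change of -0.04 ± 0.610 SE with a 95% interval of -1.55 to 1.47 (edgeR FDR 0.973), which leaves room for a large difference either way. Without scr 25-2 it was 1.46 (edgeR FDR 0.0316, called) and without scr 50-1 it was -0.76, so its sign differed with the scr library kept. That call, too, rests on 1 scr library and on the spread of the knockdown libraries alone.

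The metallothioneins varied most among the knockdown libraries. Mt1 (chr8:94179089-94180327) stood at 55.2 RPKM in wt, at 51.8 and 65.5 in scr, and at 45.6, 69.6 and 24.3 in the knockdown. Knockdown 50-2 was the highest of all 6 libraries and knockdown 50-5 the lowest, 2.87-fold apart, with 1219 and 435 reads. The means were 58.7 ± 9.64 RPKM (SD, n = 2) in scr and 46.5 ± 22.7 (SD, n = 3) in the knockdown, a log2 fold change of -0.35 ± 0.420 SE with a 95% interval of -1.39 to 0.69 (edgeR FDR 0.611).

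Mt2 (chr8:94172618-94173567), the neighbouring gene with the same metal-binding role, stood at 19.7 RPKM in wt, at 21.5 and 45.7 in scr, and at 21.1, 28.8 and 8.59 in the knockdown. Knockdown 50-5 was again the lowest and 50-2 the highest of its group, 3.35-fold apart, and the scr and knockdown ranges overlapped. The log2 fold change was -0.80 ± 0.552 SE with a 95% interval of -2.16 to 0.57 (edgeR FDR 0.371), and it was -0.16 without scr 50-1. Mt1 stood above Mt2 in every library, 2.81-fold in wt, 2.41- and 1.43-fold in scr, and 2.16-, 2.42- and 2.82-fold in the knockdown. The brain and epithelial relatives Mt3 and Mt4 had no reads in any library.

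The contrast of midnolin knockdown with scramble was thus set beside the difference between the scr libraries themselves. In 5 of the 7 tested genes (Trf, Tfrc, Ftl1, Slc40a1 and Mt2) the log2 difference between the scr libraries was larger in size than the knockdown log2 fold change, as it was in 48.5% of all tested genes. A difference of 2 single libraries varies more than one of group means, so this count is a description. The scr libraries differed past 1.5-fold in 5 of the 7 (Trf, Fth1, Ftl1, Slc40a1 and Mt2), against 29.5% of all tested genes, and past 2-fold in 4 (all of these but Ftl1), against 14.2%. The direction was not shared, since scr 50-1 was lower than 25-2 in Trf (log2 -1.55) and Slc40a1 (log2 -2.20) and higher in Fth1 (log2 1.22), Ftl1 (log2 0.73) and Mt2 (log2 1.09). For Slc40a1, 4.32% of tested genes had a larger scr fold. Among the knockdown libraries, the highest exceeded the lowest past 1.5-fold in 5 of the 7 (Trf, Tfrc, Slc40a1, Mt1 and Mt2), against 24.0% of all tested genes, and past 2-fold in 3 (Trf, Mt1 and Mt2), against 9.80%. Of the 7, 1 had every knockdown library below both scr libraries and 0 had every one above, against 24.5% below and 25.7% above among all tested genes.

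**Figure D3:**
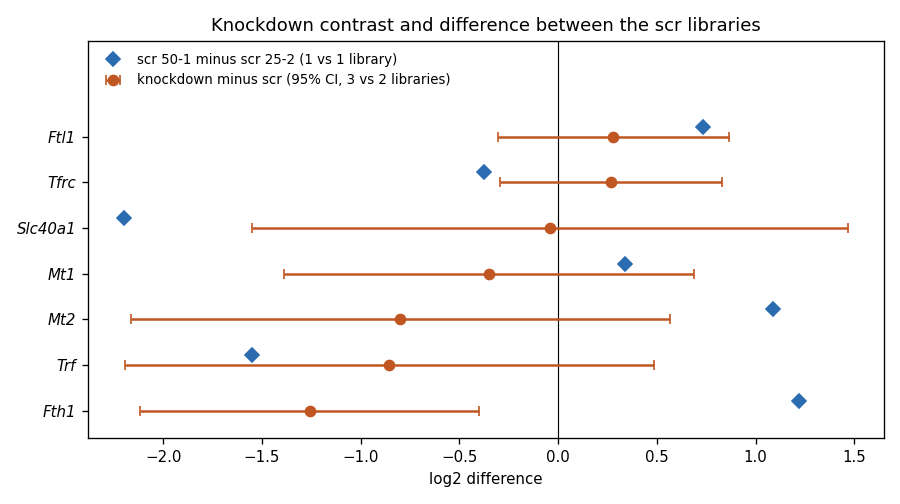
Log2 difference (horizontal axis) for the 7 tested genes, with the knockdown minus scr fold change and its 95% interval as orange circles and bars (3 and 2 libraries), and scr 50-1 minus scr 25-2 as blue diamonds. The Fth1 interval, -2.12 to -0.40, is the one that does not cross 0, and 5 genes have a diamond farther from 0 than their circle.

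The untransduced cells gave a second reference, with 1 library and no test. The wt level was past 1.5-fold from the scr mean and outside the scr range in 3 of the 7 genes. Trf was 2.39-fold and Tfrc 1.52-fold above the scr mean, while the Mt2 scr mean was 1.71-fold above wt. Of all tested genes, 18.4% were past 1.5-fold of the scr mean, and 62.5% lay outside the scr range. Mt1 and Ftl1 in wt were 0.941 and 0.961 of the scr mean.

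By mean RPKM over the 6 libraries the order was Fth1 (595), Trf (393), Ftl1 (165), Tfrc (150.3), Mt1 (52.0), Slc40a1 (30.8) and Mt2 (24.2). Hamp (0.055), Tfr2 (0.042) and Hamp2 (0) had few or no reads and are not ranked. Between Tfrc and Mt1 the ranges did not overlap. All other neighbours down to Mt2 overlapped: Fth1 was above Trf in 4 of 6 libraries, Trf above Ftl1 in 5, Ftl1 above Tfrc in 4, Mt1 above Slc40a1 in 5 and Slc40a1 above Mt2 in 4.

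The genes whose profile over the 6 libraries was nearest were sought for Fth1 and Mt1 among 8177 genes, by the root mean square (RMS) difference of log2(RPKM + 1) after centring each gene. For Fth1 they were Slc39a4 (RMS 0.104), a zinc importer, Pygb (RMS 0.119), a glycogen phosphorylase, and Htatip2 (RMS 0.121). Slc39a4 stood at 73.4 RPKM in wt, at 68.6 and 145 in scr, and at 45.4, 44.0 and 32.3 in the knockdown (edgeR FDR 0.0514, not called). Slc39a4 was picked for its nearness to Fth1, so the shared high level in scr 50-1 and low levels in the knockdown follow from that choice. For Mt1 the nearest were Fam83h (RMS 0.166), Emp1 (RMS 0.167) and Sec23a (RMS 0.202), with larger distances than those of Fth1.

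The surrounding pathway was read from 4 lists of 103 further genes, of which 88 were tested, 5 were higher, 7 lower and 76 not called. That is 13.6% called, beside 10.6% of all tested genes. Among 26 tested genes of iron uptake, storage and recycling, 3 were higher and 4 lower (median log2 fold change 0.09). Among 19 genes of hepcidin control 1 was lower (median -0.07), among 21 of mitochondrial iron and heme synthesis 1 was lower (median -0.08), and among 22 of zinc and copper handling 2 were higher and 1 lower (median -0.11), beside a median of -0.01 over all genes.

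Of the 5 listed genes of the metalloreductase families, Steap2 and Steap3 were called higher and Steap4 lower. Steap1 was not called (log2 0.49, edgeR FDR 0.267) and Cybrd1, at 7 to 38 reads, was not tested. Steap3, the ferrireductase of the endosome in which transferrin releases its iron, stood at 0.604 RPKM in wt, at 0.866 and 0.928 in scr, and at 5.67, 9.02 and 8.82 in the knockdown, a rise of 8.65-fold (log2 3.11 ± 0.296 SE, edgeR FDR 0.00755). Steap4, a related metalloreductase of the cell surface, had 256 reads in wt, 138 and 122 in scr, and 1, 1 and 0 in the knockdown (edgeR FDR 0.00602). The scr to knockdown ratio of its 260 and 2 reads, scaled for library size, was 218 with a 95% exact counting interval of 59.7 to 1807, which covers counting error only. Steap3 and Steap4 were called in all 14 alternative analyses, but the size of the change depended on the method. With limma at a pseudocount of 1 it was log2 2.20 for Steap3. For Steap4 it was log2 -1.27, beside -7.52 in the main fit. Steap2, at 0.348 and 0.164 RPKM in scr and 1.13, 0.804 and 0.816 in the knockdown, rose by a log2 fold change of 1.82 ± 0.408 SE (edgeR FDR 0.0468, and log2 2.48 without scr 25-2). It was not called without scr 50-1 (edgeR FDR 0.0583), with total-count scaling (edgeR FDR 0.0516) or with limma at a pseudocount of 1 (FDR 0.0604). Steap2 passed the filter of 1 RPKM only in knockdown 25-3, and Steap3 only in the knockdown libraries, so both entered the test through the group in which they were high. Steap4 likewise, and Meltf below, passed it only in the scr libraries.

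Carriers and oxidases of iron were also among the called genes. Slc11a2, the transporter that moves ferrous iron out of the endosome, stood at 4.65 RPKM in wt, at 2.94 and 5.49 in scr, and at 10.4, 12.0 and 10.8 in the knockdown, a log2 fold change of 1.38 ± 0.281 SE (edgeR FDR 0.0373). Cp, ceruloplasmin, the copper ferroxidase that hepatocytes secrete, stood at 55.0 RPKM in wt, at 108 and 48.5 in scr, and at 9.28, 4.74 and 8.83 in the knockdown, 10.4-fold lower (log2 -3.37 ± 0.445 SE, edgeR FDR 0.0139, and log2 -2.67 without scr 25-2). Meltf, melanotransferrin, an iron-binding relative of transferrin, stood at 1.76 RPKM in wt and at 1.92 and 4.12 in scr. In the knockdown it stood at 0.253, 0.187 and 0.271 (log2 -3.67 ± 0.411 SE, edgeR FDR 0.00992). Its log2 fold change was -3.02 without scr 50-1 and -1.64 with limma at a pseudocount of 1. In each of these genes the knockdown libraries lay on one side of wt and both scr libraries. Of all tested genes, 25.7% had every knockdown library above both scr libraries and 24.5% had every one below. Blvrb, biliverdin reductase B, which acts in heme breakdown, stood at 58.0 and 99.8 RPKM in scr and at 27.5, 35.9 and 27.2 in the knockdown (log2 -1.40 ± 0.260 SE, edgeR FDR 0.0306), and it was not called with limma at a pseudocount of 0.1 (FDR 0.0555).

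The called genes of the other lists were 5. Atoh8, a transcription factor that activates the hepcidin gene, stood at 21.0 and 27.3 RPKM in scr and at 10.5, 12.5 and 10.6 in the knockdown (log2 -1.12 ± 0.168 SE, edgeR FDR 0.0180), while Hamp itself was at the detection floor in both groups. Alad, an enzyme early in heme synthesis, stood at 46.0 and 83.2 RPKM in scr and at 21.4, 21.6 and 18.8 in the knockdown (log2 -1.66 ± 0.253 SE, edgeR FDR 0.0188). Slc31a1, the copper importer of the cell surface, stood at 20.1 and 19.7 RPKM in scr and at 33.1, 33.2 and 37.6 in the knockdown (log2 0.79 ± 0.132 SE, edgeR FDR 0.0234). Its relative Slc31a2 stood at 4.01 and 2.81 RPKM in scr and at 7.49, 7.05 and 9.78 in the knockdown (log2 1.24 ± 0.276 SE, edgeR FDR 0.0465). Slc31a1 and Slc31a2 were thus both higher in every knockdown library than in either scr library, as were 25.7% of all tested genes. Atp7a, a copper gene of the same list named after its values were seen, was not called (log2 -0.35, edgeR FDR 0.261). Its knockdown libraries all lay below both scr libraries, as in 24.5% of all tested genes. Sod1, the copper and zinc superoxide dismutase, stood at 365 and 582 RPKM in scr and at 245, 219 and 248 in the knockdown (log2 -1.01 ± 0.214 SE, edgeR FDR 0.0417). Leaving out knockdown 25-3, 50-2 or 50-5 left 2, 2 and 3 of the 12 calls, and the 2 that held throughout were Steap3 and Steap4. Sod1 also missed the threshold with the label number as a block (edgeR FDR 0.0602), with limma (FDR 0.0715 and 0.0534) and without scr 50-1 (edgeR FDR 0.0501). Slc31a2 missed it with that block (edgeR FDR 0.0789), without scr 50-1 (edgeR FDR 0.0825) and with libraries scaled to total counts less Rn45s (edgeR FDR 0.0517).

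**Figure D4:**
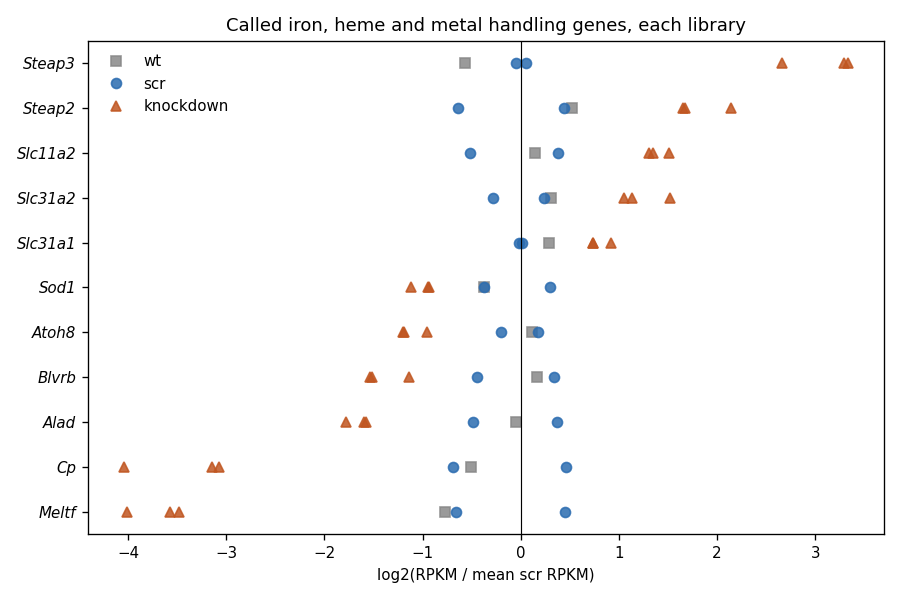
Log2 of the RPKM in each library over the mean scr RPKM (horizontal axis) for 11 of the 12 called genes of the 4 lists (wt grey squares, scr blue circles, knockdown orange triangles), leaving out Steap4, which has no reads in a knockdown library. The knockdown triangles lie on one side of both scr circles in every gene, farthest for Cp and Meltf below and Steap3 above. Among all tested genes, 25.7% had this order above both scr libraries and 24.5% below.

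The iron regulatory proteins, named for their role after their values were seen, were not called. Aco1 stood at 28.0 RPKM in wt, at 41.8 and 27.0 in scr, and at 63.2, 52.6 and 50.3 in the knockdown (log2 0.67 ± 0.229 SE, edgeR FDR 0.113). Ireb2 stood at 30.1 RPKM in wt, at 34.8 and 28.0 in scr, and at 39.1, 34.4 and 41.3 in the knockdown (log2 0.27 ± 0.163 SE, edgeR FDR 0.303). The knockdown libraries were all above both scr libraries for Aco1, as in 25.7% of all tested genes, and overlapped them for Ireb2.

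The tested genes within 5 Mb of a gene were read beside it, a description added after the values were seen. The neighbours of Sod1 had a median log2 fold change of -0.80 (47 genes), close to the -1.01 of Sod1 itself, and those of Slc31a1 and Slc31a2, which share 1 region, had 0.55 beside 0.79 and 1.24. The neighbours of Slc11a2 had 0.58 beside 1.38. Alad lies in the same region as Slc31a1 and Slc31a2, and its neighbours had a median of the opposite sign, 0.59 beside -1.66. The neighbours of Fth1 also had the opposite sign, 0.30 beside -1.26. Around Mt1 and Mt2 the median was -0.33, around Tfrc -0.37, around Steap3 0.35 and around Cp 0.06. The part of such regional values in the results above was not tested.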

How the data were processed

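Total RNA of 6 Hepa1-6 cultures was sequenced. The authors aligned single-end reads to mm10 with TopHat2 and counted reads per gene with HTSeq (version 0.6.1p1 per the submitters' processing notes; the methods give another) on RefSeq annotation. The strand setting was not given in the sources used here. The deposited values were raw counts and RPKM, which the authors computed from TMM-scaled libraries and summed exon length. Rn45s took 10.1 to 13.1% of counts per library.

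Counts of 3 knockdown and 2 scr libraries were fitted with edgeR 4.0.16 (quasi-likelihood test, TMM) for genes above 1 RPKM in at least 1 of them. The gene table of the study shows 2 scr and 2 knockdown columns, 1 each for sh1 and sh2, whereas all 3 libraries labelled as knockdown were used here. Leaving out 1 of them gave 131 to 346 called genes and 0 called members. The common biological coefficient of variation was 0.272. Alternatives used DESeq2 1.42.0, limma 3.58.1 on log2(RPKM + 0.1) or log2(RPKM + 1), other filters and scalings, the wt library and a replicate block, and left out each library in turn. An exact permutation test of 3 against 2 cannot go below p = 0.2, so none is given. All 10 members were named, with the called genes of each list (at most 5 per direction), Midn, and the 3 nearest profiles of Fth1 and Mt1 among genes of mean RPKM 5 or more. Members and lists were chosen with earlier results of these data known. The exact interval of the Steap4 ratio and the floors (3 counts) cover counting error only, while the 95% intervals of fold changes come from the edgeR fit and include the spread between libraries.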

Additional observations from a re-analysis of the deposited data

How the results depend on the processing

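The count of called genes was 1230 with edgeR, 2322 with DESeq2, 807 with the label number 25 or 50 as a replicate block, and 131 to 2273 when 1 library was left out (131 without knockdown 50-2, 2273 without scr 25-2). Called members were 0, with 1 by DESeq2 (Fth1) and 0 to 2 when 1 library was left out (Fth1 and Slc40a1 without scr 25-2, where the lone scr library is assumed to vary like the knockdown libraries). Called genes of the 4 lists were 12, with 22 by DESeq2, 20 with wt added to the controls, and 2 to 23 when 1 library was left out. Slc40a1 changed sign with limma at pseudocounts of 0.1 (log2 0.33) and 1 (log2 0.30) and under the block (log2 0.39), and ran from -0.76 to 1.46 when 1 library was left out. Trf ran from -1.43 to 0.14 and Ftl1 from -0.028 to 0.69 over those sets. The cause was not tested. The block moved the members called from 0 to 0. What the label numbers mean is not stated, so no pairing was taken in the main fit. The deviations of scr 25-2 and knockdown 25-3 correlated at 0.00421 over 11577 genes. A value from 1 pair of libraries cannot decide whether the numbers mark a pairing. Steap2 gave no value without knockdown 25-3, the one fitted library in which it passed the filter. With 2 scr libraries, members other than Fth1 had intervals that include no change and, for Trf, Slc40a1, Mt1 and Mt2, differences past 2-fold.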
